A study of Bombyx mori with 3 samples.

Results

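The trypsins, chymotrypsins and related serine proteases of the larval silkworm midgut were described from 33 array probes, out of 23229 gene probes in all. The members are the gene probes whose annotation in the files names a trypsin, chymotrypsin, serine protease, serine proteinase, elastase or collagenase, without words that mark inhibitors, haemocyte proteases or the phenoloxidase cascade, and whose brighter channel reached an intensity of 400 on each array. By their annotation 14 are trypsin-like, 13 are chymotrypsin-like and 6 are named only as serine proteases.

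Trypsins cut proteins after basic residues and chymotrypsins after large hydrophobic ones. Both belong to the same fold of serine endopeptidases and are made as inactive zymogens that are activated by cleavage. In leaf-feeding caterpillars the midgut epithelium secretes them into a strongly alkaline lumen, where they make the first cuts in dietary protein before aminopeptidases and carboxypeptidases trim the fragments.

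Bombyx mori larvae of strain P50 had eaten mulberry leaves treated with phoxim, a pesticide of the organophosphate class, by a 1 min dip in a 4 µg/mL solution, and controls had eaten water-dipped leaves. Feeding on these leaves began on day 3 of the fifth instar, and midguts were dissected 24 h later from experiments of 30 larvae each, so each RNA is a mixture of animals. Each of 3 two-colour arrays set phoxim midgut against control midgut directly, and the series calls the arrays biological replicates. Every ratio is given as phoxim over control, and the small number of arrays limits the precision.

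The direction of replicate 2 is not settled. The labels put phoxim in Cy5 on every array. The headers name the RNAs only M and MC and give the ratio as M over MC. M is in Cy5 on replicates 1 and 3 and was taken as phoxim for that reason. The header of replicate 2, however, puts M in Cy3 and MC in Cy5. The header direction was used, and values without replicate 2 and with its sign turned are given beside the called probes and the class medians. Over all gene probes the log2 ratios of replicates 1 and 2 correlated at r = -0.47, those of 1 and 3 at 0.42 and those of 2 and 3 at -0.45. Over the 3964 gene probes above the intensity level on all 3 arrays the values were 0.62, 0.18 and 0.26, and over the 33 members they were 0.68, 0.61 and 0.78; probes on an array share its labelling and are not independent replicates.

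Midgut markers drawn by name were bright: 42 of 95 probes were above the level on all arrays, and their summed intensity was 359826 to 468945 in phoxim and 358795 to 468249 in control. The 13 silk gland probes summed to 1108 to 2190 over both groups and 0 of them passed on all arrays. Over all gene probes 3964 of 23229 passed on all arrays. Of the lists for tissues that border the midgut, fat body and haemolymph and muscle were also bright. The fat body and haemolymph list, of which 26 of 51 probes passed, summed to 158505 to 378901 in phoxim and 142453 to 158293 in control, and the muscle list, of which 23 of 46 passed, to 97121 to 123483 and 72102 to 85945. The haemocyte list was mostly dim, with 5 of 47 passing and 40 never above the level. It summed to 7578 to 10323 in phoxim and 6111 to 8762 in control. In bulk tissue fewer cells of a type and less RNA per cell cannot be told apart.

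Serine protease annotation was carried by 99 probes of any brightness, and 66 of them missed the intensity level on at least 1 array. Of the chymotrypsin-like probes 59.1% passed on all arrays, of the trypsin-like ones 29.8% and of the remaining ones 20.0%. Among all gene probes 3964 of 23229 did so. The level was missed on all 3 arrays by 59 of the 66. At the level itself LOC733001 (probe sw17430), matched to a serine proteinase-like protein of Manduca sexta, was just inside, its brighter channel reaching 445 on its dimmest array, and the trypsin-like probe sw07712 and the chymotrypsin-like probe sw15059 were just outside at 351 and 355. Among dim probes with a gene symbol, those of cocoonase (Coc), the trypsin-like enzyme that softens the cocoon, Osp, Sp and LOC733125 stayed below the level on every array. The bright trypsin-like probe sw20679 was left out by 1 array: it read 33091 and 44912 in phoxim against 23623 and 18936 in control on replicates 2 and 3, but 0 and 18 on replicate 1. The dim LOC733001 probes sw02390 and sw18022 passed on 1 and 2 arrays.

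The measured members were mostly well inside the range of the arrays. Both channels reached the level on all arrays for 31 of the 33, and both were above the 95th percentile of the negative control spots for 32; the exception was LOC733001, whose control channel was above it on 2 arrays. At the bright end 3 members reached 99% of the highest intensity in some channel. LOC100101175 (probe sw19432), a trypsin-like protease, was saturated in the control channel on all 3 arrays. The serine protease probe sw22515 was saturated in the phoxim channel on all 3, and the serine protease probe BGIBMGA014430 in the phoxim channel on 2. The members with the most expressed sequence tags listed in the files were sw22668 with 175, LOC100101175 with 106 and sw22515 with 70, while 17 of the 33 had any.

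Names came mainly by similarity. A gene symbol or identifier was given for 8 members, and the best protein match of 5 members was a protein of Bombyx mori or Bombyx mandarina. A best match was listed for 31 of the 33 probes, and these fell on 20 proteins. A trypsin-like precursor of Plodia interpunctella, PiT2c, was the best match of 4 probes, and alkaline trypsin C of Manduca sexta of 4 others. The function terms in the files did not divide the classes: trypsin activity was listed for 12 of the 14 trypsin-like and 11 of the 13 chymotrypsin-like members, and chymotrypsin activity for 7 of each. Among the members LOC732967 is represented by 2 probes, and LOC692357 appears among the symbols of 2 probes. The dim probe sw22723 also carries LOC692357 and Sp, symbols it shares with the bright member BGIBMGA014430. Its intensity was at most 115 on any array, so probes of the same symbol differed widely in brightness. Cross-hybridisation between these related sequences was not tested.

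Phoxim-fed midguts had a higher level of 2 chymotrypsin-like probes and 1 trypsin-like probe and a lower level of 1 trypsin-like probe. Beyond these calls, 12 of the 13 chymotrypsin-like members had a mean log2 ratio above 0, whereas the trypsin-like members split into 7 above and 7 below, 1 of the latter being the saturated LOC100101175. Over all probes 2162 of 3964 means were above 0. The median of the mean log2 ratio was 0.72 for chymotrypsin-like members, -0.02 for trypsin-like members and 0.04 over all 3964 probes. Of the 33 members, 3 rose, 1 fell and 29 did not pass an adjusted p of 0.05 in limma with Benjamini-Hochberg adjustment over all probes tested. None of the 4 calls held without replicate 2, with its sign turned, with a dye term, with scale normalization or with all 23229 gene probes kept. Over all probes 0.505% rose and 0.177% fell, or 0.681% in either direction.

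**Figure D1:**
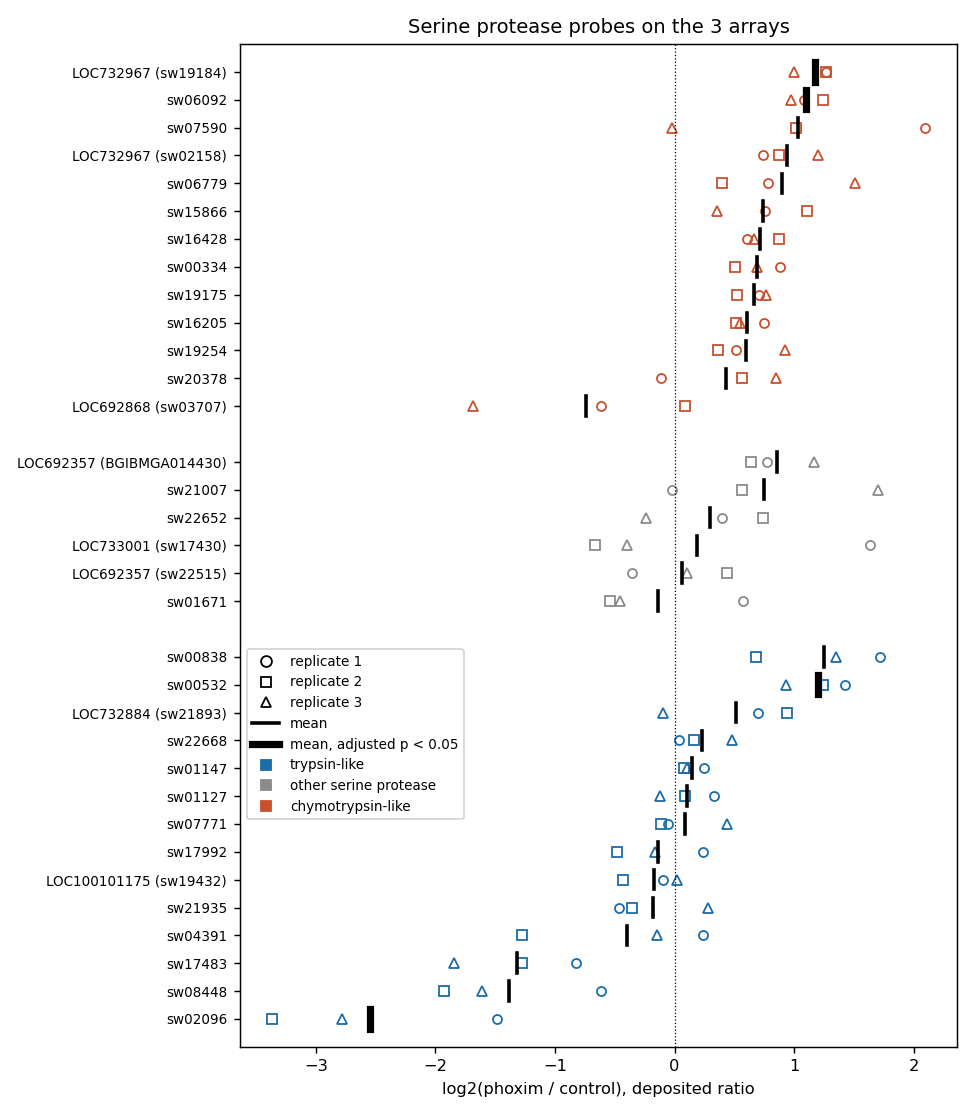
Log2 ratio of phoxim over control for each of the 33 serine protease probes (rows, by class) on replicate 1 (circle), 2 (square) and 3 (triangle). Bars are means over 3 arrays, and the thick bars are the 4 probes with an adjusted p below 0.05; 12 of 13 chymotrypsin-like means lie above 0, while the trypsin-like means run from -2.55 to 1.25.

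Among the chymotrypsin-like proteases, LOC732967 was higher in phoxim on every array. Its brighter probe sw19184, matched to a chymotrypsin-like precursor of Heliothis virescens, had intensities of 38810, 37532 and 31982 in phoxim and 18385, 23130 and 20245 in control on replicates 1, 2 and 3. The lowest phoxim value lay above the highest control value. Here and below, intensities were set side by side as deposited, with no scaling added between arrays or dyes. The log2 ratios were 1.26, 1.27 and 1.00, a mean of 1.18 ± 0.15 (SD, n = 3) or 2.26-fold, and the probe rose (adjusted p = 0.033, limma). With the sign of replicate 2 turned its mean was 0.33 (adjusted p = 0.999), and with loess on the intensities 0.77 (adjusted p = 0.18, limma). The call was also lost without replicate 1 or 2 (adjusted p = 0.092 and 0.46), with a dye term (0.22) and with scale normalization (0.056, limma). The second LOC732967 probe, sw02158, read 0.74, 0.87 and 1.20 on the log2 scale, averaging 0.94 ± 0.23 (SD, n = 3), and did not pass (adjusted p = 0.075, limma).

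The second called chymotrypsin-like probe, sw06092, is annotated as a chymotrypsinogen, the zymogen form. Its intensities were 35447, 36724 and 36263 in phoxim and 12223, 17143 and 14944 in control on replicates 1, 2 and 3. Each phoxim value was more than the highest control value, and the phoxim values lay closer together than the control values. The mean log2 ratio was 1.10 ± 0.13 (SD, n = 3), 2.14-fold, and the probe rose (adjusted p = 0.043, limma). With the sign of replicate 2 turned its mean was 0.27 (adjusted p = 0.999, limma). The call was also lost without replicate 1 or 2 (adjusted p = 0.10 and 0.47), with a dye term (0.23), with median centring (0.057) and with scale normalization (0.056, limma).

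The other chymotrypsin-like members mostly sat in a narrow band below these. The probes sw19254, sw16205 and sw19175, matched to chymotrypsins of a gall midge (Mayetiola destructor), Plodia interpunctella and Spodoptera exigua, had mean log2 ratios of 0.60, 0.61 and 0.67 with SDs of 0.29, 0.13 and 0.13 (n = 3). Another 3 probes had means between 0.69 and 0.74, and all 6 were above 0 on each array. None of the 6 passed (adjusted p = 0.12 to 0.20, limma), and the 95% interval of each mean lay above 0 before adjustment. The probe sw20378, also matched to a Spodoptera exigua midgut chymotrypsin, read -0.11, 0.56 and 0.85 on the log2 scale on the 3 arrays in turn and sat lower, at a mean of 0.43.

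The chymotrypsin-like probe with the widest spread over the arrays was sw07590. It shares its best match with sw19184, and its log2 ratios were 2.09, 1.02 and -0.02 on the 3 arrays in turn, a mean of 1.03 ± 1.06 (SD, n = 3). Its intensities on replicate 1 were 14395 in phoxim and 3885 in control, and on replicate 3 they were 9001 and 11238. It did not pass (adjusted p = 0.28, limma). Its mean was 0.50 without replicate 1 (adjusted p = 0.78), 1.04 without replicate 2 (0.82), 1.56 without replicate 3 (0.014) and 0.35 with replicate 2 turned (0.999, limma).

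LOC692868, annotated as a Bombyx mori chymotrypsinogen (probe sw03707), was the only chymotrypsin-like member with a mean below 0. Its intensities were 21927, 20050 and 12124 in phoxim and 27975, 22553 and 33913 in control. The phoxim values were below the control values on each array, and the deposited log2 ratios were -0.61, 0.09 and -1.69, a mean of -0.74 ± 0.89 (SD, n = 3) that did not pass (adjusted p = 0.33, limma). The much dimmer probe sw06779, which has the same best protein match, read 0.79, 0.39 and 1.51 and averaged 0.90 ± 0.56 (SD, n = 3), with an adjusted p = 0.16 in limma. These 2 probes of like annotation therefore had opposite signs on replicates 1 and 3.

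Taken array by array, 11 of 13 chymotrypsin-like members were above 0 on replicate 1, 13 on replicate 2 and 11 on replicate 3. Of all 3964 probes 2132, 2169 and 2183 were above 0 on these arrays. On all 3 arrays 10 of the 13 were above 0, where 23.0% of all probes were. Replicates 1 and 3 are the arrays on which M was taken as phoxim from the labels. On these alone 10 of the 13 were above 0 on both, against 30.5% of all probes. With replicate 2 turned its chymotrypsin-like median became -0.56 against 0.75 and 0.77 on the other arrays. In the same samples the fat body and haemolymph markers had a median log2 ratio of 0.64 with 10 of 26 rising, against 0.505% of all probes. These calls too were lost with replicate 2 turned, with a dye term or with all gene probes kept, where 0 of all probes passed. The muscle markers had a median of 0.45 with 0 of 23 passing. In each of these 2 marker lists 16 probes were above 0 on both replicates 1 and 3. Their part in the chymotrypsin values was not tested. The midgut markers had a median of 0.04, with 0 of 42 passing in either direction.

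**Figure D2:**
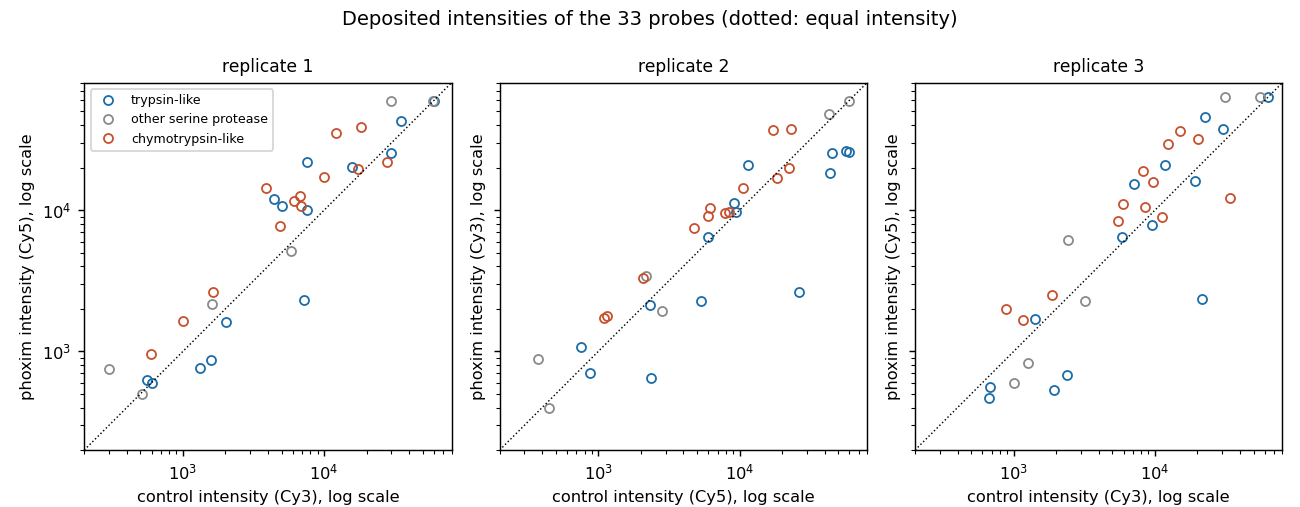
Deposited phoxim intensity (vertical axis) against control intensity (horizontal axis), both on log scales, for the 33 probes on each array, coloured by class; the dotted line marks equal intensity. Most chymotrypsin-like probes lie above the line on each array, and the trypsin-like probe sw02096 lies farthest below it, at 2315, 2625 and 2357 in phoxim against 7158, 26557 and 21578 in control.

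The trypsin-like members spanned both ends of the range. The probe sw02096, matched to trypsin Ia of the stem borer Sesamia nonagrioides, had intensities of 2315, 2625 and 2357 in phoxim and 7158, 26557 and 21578 in control on replicates 1, 2 and 3. Phoxim values were nearly equal on the 3 arrays, and control values were all higher but differed widely, with replicate 1 the lowest. The log2 ratios were -1.49, -3.36 and -2.79, a mean of -2.55 ± 0.96 (SD, n = 3), and the probe fell (adjusted p = 0.032, limma). With the sign of replicate 2 turned its mean was -0.30 (adjusted p = 0.999, limma). The call was also lost without replicate 2 (mean -2.14, adjusted p = 0.25), with a dye term (adjusted p = 0.071) and with scale normalization (0.061, limma). It ranked 3963 of 3964 when probes were ordered from the highest to the lowest mean.

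A pair of probes matched to PiT2c also had means well below 0. The probe sw08448 had intensities of 875, 2258 and 675 in phoxim and 1580, 5352 and 2375 in control, and sw17483 had 759, 653 and 537 against 1328, 2369 and 1940. Both were lower in phoxim on every array. Their mean log2 ratios were -1.38 ± 0.69 and -1.32 ± 0.51 (SD, n = 3), and neither passed (adjusted p = 0.083 and 0.067, limma). Without replicate 1 their means were -1.77 and -1.56 (adjusted p = 0.012 and 0.030, limma), and without replicate 3 they were -1.27 and -1.05 (adjusted p = 0.032 and 0.018, limma). Without replicate 2 they were -1.11 and -1.33 (adjusted p = 0.55 and 0.50, limma), and with it turned -0.096 and -0.46 (adjusted p = 0.999 for both).

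The other PiT2c matches were bright. The probe sw04391 had log2 ratios of 0.24, -1.27 and -0.14 and averaged -0.39 ± 0.78 (SD, n = 3), with an adjusted p = 0.52 in limma. LOC100101175 had deposited log2 ratios of -0.10, -0.43 and 0.02. Its control channel was saturated on every array and its phoxim channel on replicates 1 and 3, so those arrays measured no difference. On replicate 2, the array of unsettled direction, phoxim stood at 25628 and control at 59716. The mean of LOC100101175 is therefore not read as a difference, and no fold is given for it.

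At the other end of the class, 1 of the 4 probes matched to alkaline trypsin C rose. This probe, sw00532, had intensities of 22111, 20923 and 21044 in phoxim and 7564, 11435 and 11749 in control. The phoxim values were close together and each exceeded the highest control value. Its log2 ratios were 1.43, 1.24 and 0.93, a mean of 1.20 ± 0.25 (SD, n = 3) or 2.30-fold, and it rose (adjusted p = 0.042, limma). With the sign of replicate 2 turned its mean was 0.37 (adjusted p = 0.999, limma). The call was also lost without replicate 1 or 2 (adjusted p = 0.11 and 0.46), with a dye term (0.25), with loess on the intensities (0.083), with median centring (0.054) and with scale normalization (0.056, limma). The other probes with that best match were near 0: sw21935 had a mean of -0.18, sw01147 of 0.14 and sw22668 of 0.23, and none passed (adjusted p = 0.52 to 0.66, limma).

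The highest mean of all 33 members belonged to sw00838, matched to trypsin III of Sesamia nonagrioides. Its intensities were 12017, 11166 and 15417 in phoxim and 4444, 9155 and 7117 in control, with the lowest phoxim value above the highest control value. Its log2 ratios of 1.72, 0.68 and 1.35 varied more than those of sw00532, and with a mean of 1.25 ± 0.53 (SD, n = 3) it did not pass (adjusted p = 0.075, limma). LOC732884, a trypsin-like protease matched to alkaline trypsin B of Manduca sexta, had log2 ratios of 0.70, 0.94 and -0.10 and averaged 0.52 ± 0.54 (SD, n = 3), with an adjusted p = 0.34 in limma. The remaining 3 trypsin-like probes had means from -0.13 to 0.10.

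On all 3 arrays 4 trypsin-like members were above 0 and 3 below 0, where 23.0% and 14.3% of all probes were. On replicates 1 and 3 alone 4 were above 0 on both and 3 below, against 30.5% and 21.5% of all probes. Array medians of the class were 0.14, -0.23 and -0.04 on replicates 1, 2 and 3, close to 0 while single members differed by up to 3.79 between the highest and the lowest mean.

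The 6 proteases named only as serine proteases had a median of 0.24 and 0 passed. BGIBMGA014430, assigned to LOC692357, Sp and sp-2, had phoxim intensities of 59612, 47806 and 63318 and control intensities of 29971, 42894 and 31150. All phoxim values were higher, and since 2 of them were saturated the ratio may be too small there; its mean log2 ratio was 0.86 ± 0.27 (SD, n = 3, adjusted p = 0.10, limma). The probe sw22515 is assigned to LOC692357 and to LOC732863, a fatty acid binding protein, and was saturated in the phoxim channel on all 3 arrays and in the control channel on 2, so its mean of 0.06 ± 0.40 (SD, n = 3) is not a measure of a difference. The probe sw21007, matched to a Bombyx mori serine protease precursor, read -0.02, 0.56 and 1.70 on the 3 arrays in turn and averaged 0.75 ± 0.87 (SD, n = 3), with an adjusted p = 0.33 in limma.

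The other members of this group changed sign between arrays. LOC733001 had log2 ratios of 1.63, -0.66 and -0.40 with a mean of 0.19, and without replicate 1 its mean was -0.53. The probe sw01671, with the same best match as sw22515, had 0.57, -0.54 and -0.46, and sw22652, matched to serine protease 18D of Anopheles gambiae, had 0.40, 0.74 and -0.24. Each of these 3 probes had an SD over the arrays larger than its mean.

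Chymotrypsin-like members were set against trypsin-like members on each array. The chymotrypsin-like median exceeded the trypsin-like one by 0.61, 0.80 and 0.81 on replicates 1, 2 and 3, a mean difference of 0.74 ± 0.11 (SD, n = 3) on the log2 scale. The class medians did not overlap between classes over the arrays, at 0.56 to 0.77 against -0.23 to 0.14. Single members did overlap: LOC692868 lay among the low trypsins, and sw00838 and sw00532 lay above every chymotrypsin-like mean. No p is given for this difference, because the classes and members were chosen with results of these data known. With the sign of replicate 2 turned the differences were 0.61, -0.80 and 0.81, whose mean of 0.21 was smaller than their SD of 0.88, and without replicate 2 the mean difference was 0.71.

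**Figure D3:**
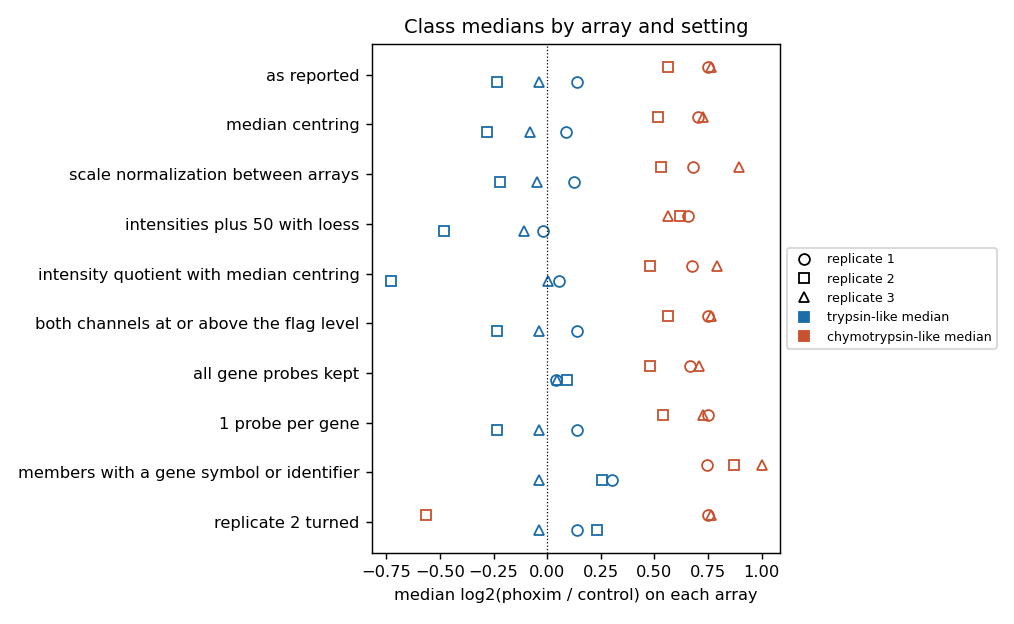
Median log2 ratio of phoxim over control of the trypsin-like (blue) and chymotrypsin-like (orange) members on each array (symbols) as reported and under other settings. The chymotrypsin-like median lies above the trypsin-like one on every array in each setting drawn except with replicate 2 turned, where it is -0.56 on that array.

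Deposited ratios departed from a simple division of the 2 intensities, and for bright members the gap was large on replicate 2. The trypsin-like probe sw22668 had 26040 in phoxim and 56561 in control there, a log2 quotient of -1.12, and a deposited log2 ratio of 0.17. For LOC732884 the quotient was 0.10 and the deposited value 0.94, and for LOC100101175 they were -1.22 and -0.43. For the called probes the deposited value minus the quotient on that array was 0.57 for sw19184, 0.37 for sw00532, 0.14 for sw06092 and -0.03 for sw02096. With the quotients centred on each array's median, a setting chosen after seeing the data, the class medians were -0.12 for trypsin-like and 0.62 for chymotrypsin-like members. In that setting the calls of sw19184 and sw00532 were lost (adjusted p = 0.22 and 0.12, limma).

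The number of called members depended on which arrays were used. It was 0 without replicate 2, with 12 members higher and 4 lower at an unadjusted p below 0.05, where 257 of 3964 probes passed. It was 3 without replicate 1, all lower, and 13 without replicate 3, of which 10 were higher and 3 lower. The share of all probes called was 0.101%, 0.656% and 11.9% in these fits. Scaling the spread of the arrays to one another left 0 members and 0.0252% of all probes called. At an unadjusted p below 0.05, 14 members were higher and 3 lower, and 600 of 3964 probes passed in either direction. Median centring gave 2 called members against 0.631% of all probes, both channels above the level 4 against 0.498%, loess on the intensities 4 against 0.782% and 1 probe per gene 4 against 0.670%. With replicate 2 turned 0 members passed, and 0 had an unadjusted p below 0.05 in limma, where 29 of 3964 probes did. With all 3 arrays as reported 14 members were higher and 3 lower at an unadjusted p below 0.05, where 10.7% and 4.54% of all probes were; 11 of the 14 were chymotrypsin-like.

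The other genes of protein digestion were read from lists drawn by name. The exopeptidase list, drawn as aminopeptidases, carboxypeptidases and dipeptidases, enzymes that finish digestion, held 26 measured probes. Most of them are also among the midgut markers, so these lists are not separate measurements. In limma 0 exopeptidase probes rose and 0 fell. At an unadjusted p below 0.05, 2 of the 26 were higher and 3 lower, where 10.7% and 4.54% of all probes were. The exopeptidase median was -0.02, with means from -1.61 (sw22411) to 0.68. Only 2 other endopeptidases were measured: cathepsin D (Cathd), an aspartic protease of lysosomes, had a mean of 0.04 and the cysteine proteinase LOC692390 one of 0.21.

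Of 13 serine protease inhibitor probes 0 passed, and their median was 0.10. At an unadjusted p below 0.05 in limma 2 of them were higher and 0 lower, where 10.7% and 4.54% of all probes were. Sci-sb, a chymotrypsin inhibitor, had the highest mean, reading 2.45, 0.48 and 1.89 on the 3 arrays in turn and averaging 1.61 ± 1.02 (SD, n = 3), with an adjusted p = 0.12 in limma. Of 4 haemolymph serine protease probes, drawn by annotation words of immune rather than digestive proteases, 1 rose, and their median was 0.66. Over all probes 0.505% rose. The called probe was LOC732952, matched to a haemocyte protease, which averaged 1.63 ± 0.25 (SD, n = 3) with an adjusted p = 0.014 in limma. With replicate 2 turned, with a dye term or with all gene probes kept its call was lost, as 0 of all probes passed.

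**Figure D4:**
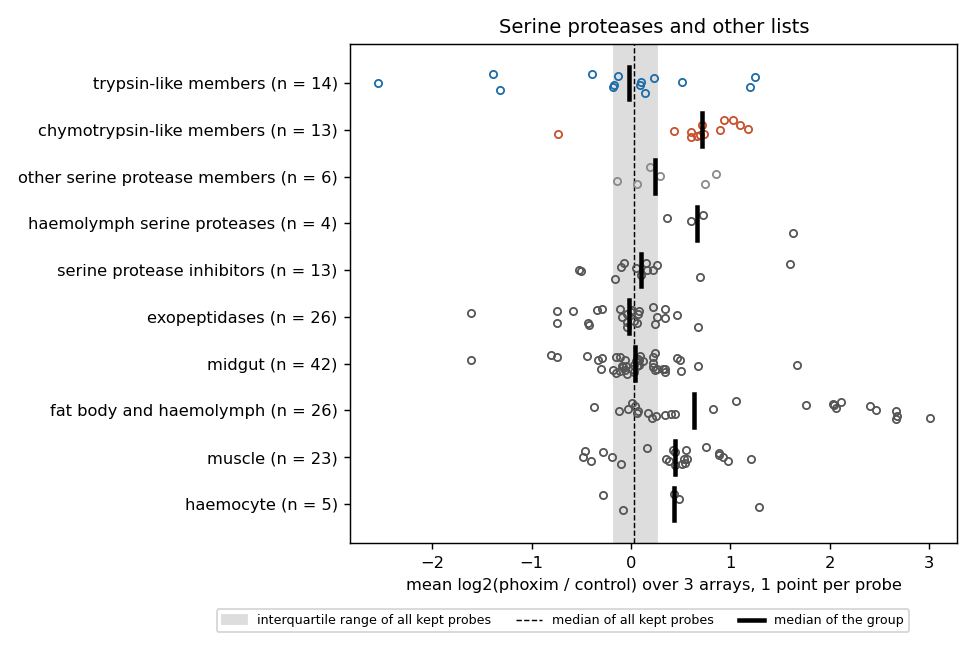
Mean log2 ratio of phoxim over control over 3 arrays, 1 point per probe, for the serine protease classes, other lists of protein digestion and marker lists of midgut and bordering tissues, with black bars at each group's median. Most exopeptidase probes are drawn again in the midgut list. The medians of the chymotrypsin-like members (0.72), haemolymph serine proteases (0.66), fat body and haemolymph (0.64), muscle (0.45) and haemocyte (0.43) lists lie right of the grey band, the interquartile range of all kept probes (-0.17 to 0.27), and the medians of the other groups drawn lie inside it.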

How the data were processed

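Per the file headers, the authors deposited a Cy5 and a Cy3 intensity for each spot and a ratio of M over MC. M was taken as phoxim because on replicates 1 and 3 it is the RNA in Cy5, the dye the labels give to treated midgut. The intensities carry no background column, so a subtraction by the authors was assumed. Their ratio departs from the quotient of the intensities, so a normalization within arrays was inferred; its method is not given in the sources used here, and scanner and software are likewise not given. The deposited value table holds log2 of that ratio, to within 4.9e-09 on 24288 spots, with column medians of 0.04, -0.021 and 0.016; its scale, centring and direction are those of the ratio.

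Control spots (677 positive, 382 negative) were left out. The files mark spots whose brighter channel reaches 400, checked on every spot, and 4343 to 4714 gene probes per array carried the mark. The log2 ratio of the 3964 probes marked on all 3 arrays entered an intercept-only limma model (version 3.58.1, R 4.3.3) with eBayes, two-sided, threshold 0.05, after a test on simulated data. Lists were drawn by name; members and lists were chosen with earlier results of these data known. Of 12 numbers in the identifier column of the members, 7 are in the reference gene table of assembly ASM3026992v2, used for names only. Members named are those called, those with a symbol, and the 5 highest and 5 lowest of each class; others named beside the intensity level or in lists were chosen after their values were seen. Alternatives covered the direction of replicate 2, probe filter, normalization, dye, replicates, probes per gene and naming.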

Additional observations from a re-analysis of the deposited data

How the results depend on the processing

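The count of called members was 4 as reported. It was 0 with replicate 2 turned, with all gene probes kept, with scale normalization between arrays and with a dye orientation term, 2 with median centring and 1 over members with a gene symbol or identifier; with 1 replicate left out it was 0 to 13. At an unadjusted p below 0.05 in limma, all gene probes kept gave 8 higher and 4 lower, scale normalization 14 and 3, and the dye term 12 and 4. In these settings 450 of 23229, 600 of 3964 and 348 of 3964 probes passed that threshold in either direction. Over all probes the counts were 27 as reported, 0 with replicate 2 turned, all probes kept or the dye term, 16 with both channels above the level, 1 with scale normalization, and 26, 4 and 470 without replicates 1, 2 and 3. Loess on the intensities plus 50 gave 1 member higher and 3 lower in place of 3 and 1, and the median-centred quotient 1 and 2. The causes of these shifts were not tested, beyond fewer samples or other probes tested.

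The median over all members moved from 0.43 to 0.19 with replicate 2 turned, 0.10 with all 99 probes kept, 0.52 with both channels above the level and 0.30 with 1 probe per gene. The trypsin-like median moved to 0.17 over the 2 members with a symbol or identifier. The chymotrypsin-like median moved to 0.32 with replicate 2 turned, 0.59 with loess and 0.94 over the 3 members with a symbol or identifier, and was 0.69 to 0.74 with 1 replicate left out. The class difference moved to 0.21 with replicate 2 turned, 0.56 with all probes kept and 0.87 with the median-centred quotient, and was 0.71 to 0.80 with 1 replicate left out. Other settings kept these values within 1 SD of the arrays.

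No called member turned sign. Means turned sign with replicate 2 turned for sw22515 (-0.23), sw19432 (0.12), sw21893 (-0.11), sw01671 (0.22), sw22652 (-0.19), sw04391 (0.45) and sw21935 (0.056), with the dye term for sw17430 (-0.023), and with the median-centred quotient for sw01147 (-0.023). With 1 replicate left out the mean was -0.13 to 0.27 for sw22515, -0.53 to 0.62 for sw17430, -0.50 to 0.059 for sw01671 and -0.71 to 0.045 for sw04391. Both channels of sw22515 and sw19432 (LOC100101175) were saturated on some arrays, so their means and sign changes are not read as differences. No paired analysis was possible because the labels hold 1 group, each array already being a pair. Brightness limits the account: 66 of 99 annotated probes missed the level on at least 1 array and entered only the fit of all gene probes.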
